A study of Mus musculus with 5 samples.

Results

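Nuclear genes of respiratory complex III, cytochrome c, complex IV and ATP synthase were followed in hepatocytes sorted from mouse liver. Members were taken by symbol: rows starting with Uqcr, Cox4, Cox5, Cox6, Cox7, Cox8 or Atp5, with Cyc1 and Cycs, and without pseudogenes marked -ps. This gave 40 of the 13966 genes in the table, with 9 genes of complex III, 1 of cytochrome c, 13 of complex IV and 17 listed with ATP synthase. RNA was measured in 5 libraries of hepatocytes of ICR mice, an outbred stock, without any engineered allele in the labels. The mice carried a fluorescent reporter compound for fatty acid oxidation (FAO), and a flow sorter divided the hepatocytes by its signal, so that RNA could be read against FAO activity. Control hepatocytes gave a negative and a positive gate. Hepatocytes with bezafibrate, which activates the peroxisome proliferator-activated receptors (PPARs), gave a negative, a positive and a high gate. The sources used here give no age, sex, dose or number of mice behind a library.

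Complex III passes electrons from ubiquinol to cytochrome c, the small soluble carrier between the membranes, and complex IV passes them on to oxygen. Both pump protons across the inner mitochondrial membrane, and ATP synthase lets the protons return through its rotating c-ring to drive ATP formation in its F1 head. In liver these complexes use the electrons that beta-oxidation takes from fatty acids. The subunits encoded by mitochondrial DNA were not analysed here. A further 5 tissue isoform genes (Cox4i2, Cox6a2, Cox7b2, Cox8b and Cox8c) had no row in the table, so no value can be given for them.

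With 1 library per group, the differences below lack a replicate check, no p-value between replicates can be given, and treatment and mouse cannot be told apart. The deposited values are normalised read counts, from which whole reads could be recovered, with totals from 5056884 (control positive) to 7146578 (bezafibrate negative). Rn45s, which encodes the precursor of ribosomal RNA, took 34.8% to 36.3% of reads in the control libraries and 10.5% to 18.5% in the bezafibrate libraries. The libraries carried the hepatocyte label's markers: 6 hepatocyte genes summed to 41964.5 and 40392.3 in the control negative and positive libraries. With bezafibrate the sum was 95374.3 in the negative, 67653.9 in the positive and 74883.7 in the high library. Alb alone was the larger part of each sum, at 24303.3 and 23064 in control and at 72188.3, 48208.5 and 54530.1 with bezafibrate. The sum moves with the member genes below, and its part in their differences was not tested. Summed markers of other cells were far lower, and no marker in the table was at 0 in all 5 libraries. Kupffer cell genes (3 of 7 in the table) stayed between 1.33 and 5.33, sinusoidal endothelial genes (5 of 6) between 15.1 and 26.1, cholangiocyte genes (4 of 5) between 2.80 and 13.1, and erythroid genes (2 of 5) between 24.1 and 45.5. All 6 stellate cell genes were in the table and summed to 102 and 111 in the control libraries and to 33.1, 30.6 and 38.8 in the bezafibrate libraries. In bulk RNA, fewer cells of a type and less RNA per cell cannot be told apart.

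Promoter sequence was at hand for 33 of the 40 members, from RefSeq on GRCm38.p6, as windows of 250 bases before to 50 bases after the annotated start; 3 were matched through another symbol of the same gene. Uqcrq, Cox4i1, Atp5a1, Uqcrc2, Cox6c, Cyc1 and Uqcrb were not among them. The 33 include Cox6b2, Cox7a1 and Atp5s, which fell below the level filter that defines the analysed genes. Nuclear respiratory factor 1 (NRF1) is a textbook activator of respiratory chain genes, and its core letters GCATGCGC stood, on either strand, in 7 of the 33 (21.2%). The same letters stood in 6.39% of 6915 analysed genes with a window and in 3.05% of all 27025 genes with one. The 7 sites are shown because NRF1 letters were found in at least 1 gene each of complex III, cytochrome c, complex IV and ATP synthase. Of the complex IV members with a window, Cox6a1 alone had them. Each is given 5′ to 3′ on the gene's strand within 30 bases, with the NRF1 letters in capitals; where 10 letters are capital, the motif reads on both strands with overlap.
Uqcrc1: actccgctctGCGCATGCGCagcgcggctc
Uqcr11: atcgccttcacGCATGCGCtatacgtctgc
Cycs: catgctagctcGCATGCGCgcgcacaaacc
Cox6a1: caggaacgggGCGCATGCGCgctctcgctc
Atp5g2: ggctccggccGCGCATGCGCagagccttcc
Atp5k: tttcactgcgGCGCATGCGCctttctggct
Atp5l: aaccaataacGCATGCGCatttcccccact
The stretches lie at chr9:108936668-108936697 on the plus strand for Uqcrc1, and on the minus strand at chr10:80406807-80406836 for Uqcr11, chr6:50566611-50566640 for Cycs and chr5:115349101-115349130 for Cox6a1. On the minus strand as well, they lie at chr15:102671070-102671099 for Atp5g2, chr5:108434430-108434459 for Atp5k and chr9:44920963-44920992 for Atp5l. Counted from the annotated start, the letters begin at position 30 in Uqcrc1 and between positions -240 and -4 in the other members.

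The letters of the estrogen-related receptor element, TCAAGGTCA, occurred in 1 member window, that of Atp5g3, against 0.304% of analysed genes with a window. Its upstream stretch, chr2:73911327-73911496 on the minus strand and outside annotated exons, is shown with these letters, here read on the opposite strand, in capitals.
Atp5g3: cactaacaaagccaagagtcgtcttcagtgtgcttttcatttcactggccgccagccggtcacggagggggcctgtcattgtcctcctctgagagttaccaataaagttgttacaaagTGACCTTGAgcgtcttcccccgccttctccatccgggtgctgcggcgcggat
ETS-family letters CCGGAAG stood in 10 member windows (30.3%, against 21.8%) and YY1 letters AAGATGG in 5 (15.2%, against 9.18%), both strands searched. The PPAR element, searched on both strands as an exact direct repeat spaced by 1 base (DR1), was in 0 of 33 windows and in 5 of the 6915. A match describes letters only, and the lack of one says only that these letters are not in the window. Members with and without NRF1 letters had median log2 differences of 1.12 and 1.30 between bezafibrate and control in the negative gate, and of 0.87 and 0.92 in the positive gate, with 7 members against 23.

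Bezafibrate libraries held more RNA of these complexes than control libraries of the same gate, and all 3 complexes shared in it. Of all reads, the 40 members took 0.129% (95% Clopper-Pearson interval 0.126 to 0.132) in control negative and 0.134% (0.130 to 0.137) in control positive. With bezafibrate they took 0.356% (0.352 to 0.3603) in the negative, 0.282% (0.277 to 0.286) in the positive and 0.315% (0.311 to 0.319) in the high gate. Outside Rn45s reads, the shares were 0.203% and 0.205% in the control libraries and 0.398%, 0.346% and 0.364% in the bezafibrate libraries. The bezafibrate shares thus lay above both control shares on either base. Intervals here and below cover counting error only, since these reads carry no molecular identifiers and are not independent molecules.

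Single genes were compared when their mean over the 5 libraries reached 5.02 normalised read counts; 8973 genes did, 37 members among them. Cox6b2, Cox7a1 and Atp5s did not. A difference is one of log2(value + 1.0035), which understates differences of low genes, and a fold is a plain ratio of values with a 95% counting interval. In the negative gate the median member difference between bezafibrate and control was 1.24, against 0.02 over all genes. It was 1.12 for complex III, 1.30 for complex IV and 1.28 for ATP synthase, and 28 of 37 members were at least 2-fold higher with bezafibrate (percent of all genes: 10.2%). Above 0 lay 35 of 37 members (51.4% of all genes), and 0 were 2-fold lower (5.86% of all genes). In the positive gate the median was 0.91, against 0.00 over all genes, with 0.91 for complex III, 0.84 for complex IV and 0.91 for ATP synthase. There, 16 of 37 members were at least 2-fold higher (4.94% of all genes) and 36 of 37 lay above 0 (50.4%). The counting interval of the fold lay above 1 for 35 of 37 members in either gate, against 32.3% of all genes in the negative gate and 25.9% in the positive gate. All 3 bezafibrate libraries were above both control libraries for 35 of 37 members (35.7% of all genes), the exceptions being Cox7a2l and Atp5sl.

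Scaling sets how far the whole table leans. Of the genes 2-fold apart, 63.6% were higher with bezafibrate in the negative gate and 62.9% in the positive gate; with equal column totals the shares were 84.1% and 85.8%, without Rn45s 34.3% and 47.9%, and without the 100 highest genes 53.3% and 59.8%. Equal totals moved the median of all genes to 0.25 and 0.20 in the 2 gates, and leaving out Rn45s moved it to -0.22 and -0.10. The median of the analysed members stayed between 0.90 and 1.46 in the negative gate and between 0.68 and 1.11 in the positive gate over 9 alternatives each. On the recovered reads, an additive edgeR fit of gate and treatment over 4 libraries put 35 of 37 members higher and 0 lower with bezafibrate at an adjusted p below 0.05 (24.1% of all genes were higher). Gate is a term of that fit, so its residual spread comes from how the treatment difference changes between gates. It is thus no test between mice. The fit assumes the same treatment difference in both gates, whereas for members the median change from the negative to the positive gate was -0.35.

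**Figure D1:**
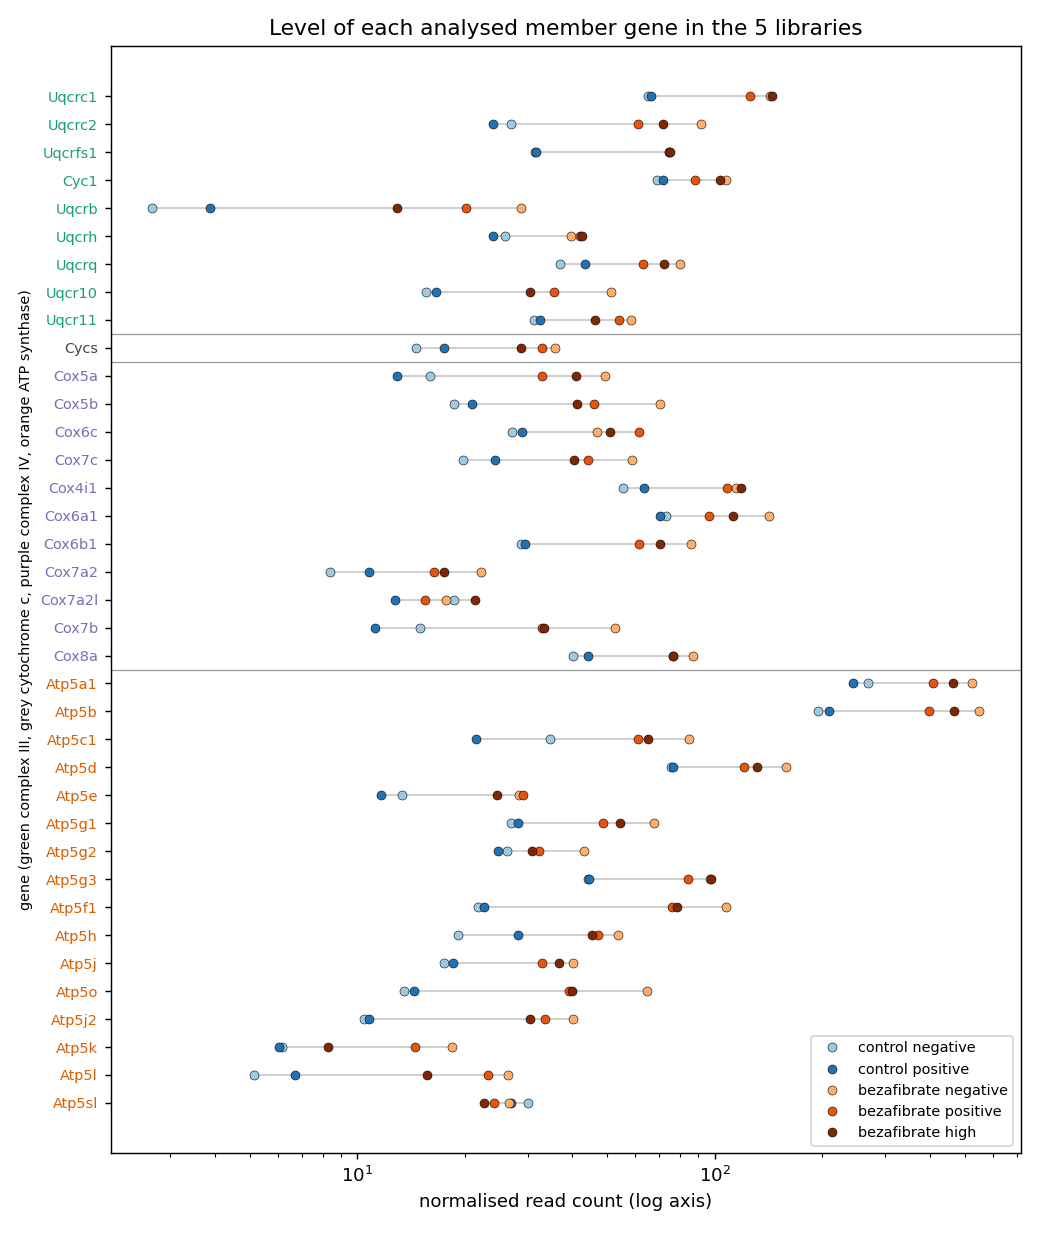
Normalised read count (log axis) of the 37 member genes that reached the mean value, those listed with complexes III, IV and ATP synthase and Cycs, 1 point per library; blue points are control and orange to brown points bezafibrate libraries. For 35 of these the 3 bezafibrate points lie to the right of both control points.

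The core of complex III is built of Uqcrc1 and Uqcrc2, its large matrix-facing proteins, of Cyc1, the cytochrome that hands electrons to cytochrome c, and of Uqcrfs1, the iron-sulphur protein. With control first, negative before positive, and then bezafibrate, negative before positive and high, Uqcrc1 stood at 64.9, 66.4, 143, 125 and 145. In the same order, which is used throughout, Uqcrc2 stood at 26.9, 23.9, 91.3, 61.0 and 71.7. Cyc1 stood at 68.8, 71.6, 108, 87.9 and 104. All 3 genes were lowest in the control libraries, but by unlike amounts. Uqcrc2 was higher with bezafibrate by 3.39-fold (2.81 to 4.12) among negative cells and by 2.55-fold (2.06 to 3.18) among positive cells. For Cyc1 the folds were 1.57 (1.38 to 1.79) and 1.23 (1.07 to 1.41), and for Uqcrc1 they were 2.20 (1.94 to 2.5003) and 1.89 (1.65 to 2.16). Uqcrfs1, outside the naming rule, had folds of 2.36 and 2.35. The medians of the 4 core genes were 1.17 and 1.06.

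Among the small complex III subunits, Uqcrb, which lies close to the ubiquinone-binding site, had the largest treatment difference of the 37 members in either gate. It stood at 2.67, 3.88, 28.7, 20.2 and 12.9, from 13, 18, 215, 128 and 97 reads. Its folds were 10.7 (6.15 to 20.5) among negative cells and 5.20 (3.16 to 9.05) among positive cells, and the high library lay between the other bezafibrate libraries and the control libraries. The gene lies at chr13:66900617-66905378 on the minus strand, and its exons overlap those of Gm10767 on the opposite strand, which stood at 0.205, 0.216, 0.933, 1.42 and 1.07. Uqcrh, the hinge protein between cytochrome c1 and cytochrome c, had the smallest difference of complex III in the negative gate, with 25.9, 23.9, 39.6, 41.9 and 42.5 and folds of 1.53 (1.24 to 1.90) and 1.75 (1.40 to 2.21). Uqcrq stood at 37.0, 43.3, 80.1, 62.9 and 72.2, with folds of 2.17 and 1.45. Uqcr10 and Uqcr11, outside the naming rule, ranged from 15.6 to 51.2 and from 31.2 to 58.4. The medians of the 5 small subunit genes were 1.10 and 0.78.

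Because library scaling cancels within a complex, shares of the complex's own reads compare its members without it. Uqcrb made up 0.877% of complex III reads in control negative (0.468 to 1.495) and 1.24% in control positive (0.734 to 1.95). With bezafibrate it made up 4.25% (3.71 to 4.85) in the negative, 3.58% (2.996 to 4.24) in the positive and 2.16% (1.75 to 2.63) in the high gate. Cyc1 ran the other way, with 22.6% and 22.8% in the control libraries and between 15.6% and 17.3% in the bezafibrate libraries. Uqcrc2 made up 8.84% and 7.62% in the control libraries and 13.5%, 10.8% and 11.96% in the bezafibrate libraries. Uqcrc1 held 21.2% to 24.1% in all 5.

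**Figure D2:**
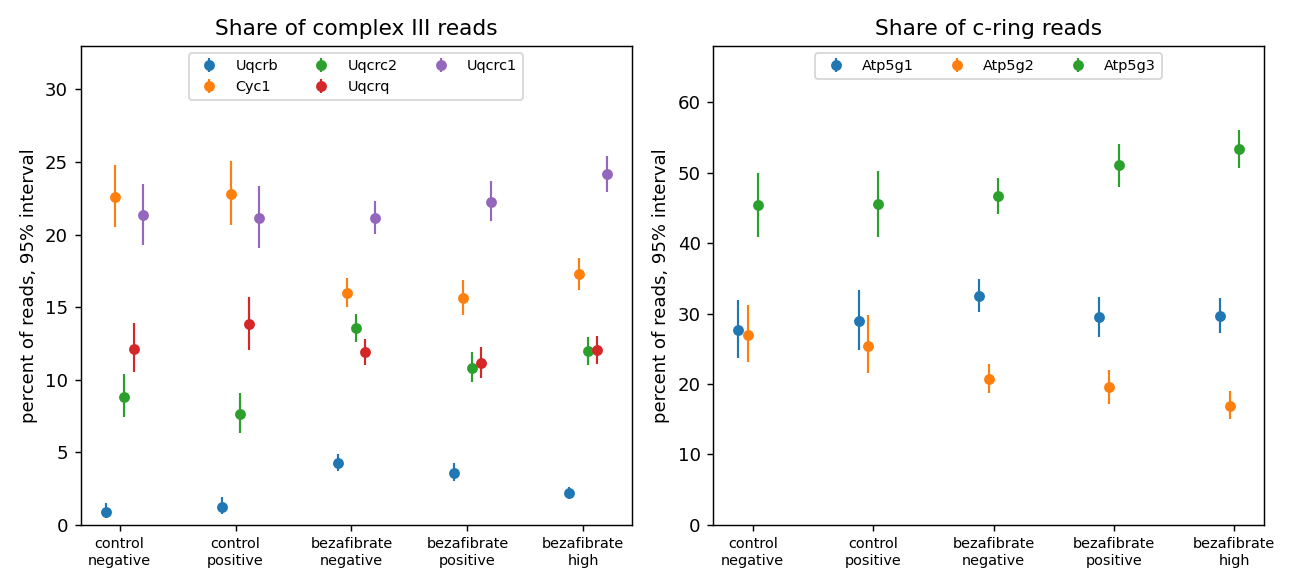
Percent of complex III reads (left) and of the reads of the 3 c-ring genes (right) in each library, with exact 95% binomial intervals. Uqcrb reaches 1.24% at most in the control libraries and 2.16% at least in the bezafibrate libraries, and Atp5g2 is at 25.4% at least in the former and 20.8% at most in the latter.

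Cycs, the gene of cytochrome c itself, stood at 14.6, 17.5, 35.9, 32.8 and 28.8. Its folds were 2.46 (1.89 to 3.24) among negative cells and 1.88 (1.45 to 2.46) among positive cells, close to the member medians, with the high library lowest of the bezafibrate libraries.

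In complex IV, the nuclear subunits around the catalytic core are either shared by all tissues or come in tissue isoforms. Among the shared subunits, Cox5a stood at 16.01, 12.9, 49.3, 32.8 and 41.0, with folds of 3.08 (2.41 to 3.98) and 2.53 (1.89 to 3.44). Cox6c stood at 27.1, 28.9, 46.8, 61.3 and 50.9 and was the only member of complex IV with its highest value in bezafibrate positive. Its folds were 1.73 (1.41 to 2.13) and 2.12 (1.74 to 2.60); its exons overlap those of Vps13b on the opposite strand, which ran from 254.6 in control negative down to 178.5 in bezafibrate negative. Cox5b, outside the naming rule, had the largest negative-gate difference of complex IV, 1.85, with 18.7 in control negative and 70.1 in bezafibrate negative. Cox7c ranged from 19.7 to 58.8. The 4 shared subunits had medians of 1.55 and 1.08.

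The isoform genes had lower medians, 1.10 and 0.76 over 7 genes. Cox4i1, the subunit 4 isoform of liver and most other tissues, stood at 55.2, 63.4, 115, 108 and 119, with folds of 2.08 (1.81 to 2.39) and 1.71 (1.49 to 1.97). Cox6a1, the form of subunit 6a outside heart and muscle, stood at 72.9, 70.5, 142, 96.3 and 113. Cox6b1 stood at 28.7, 29.5, 85.7, 61.3 and 70.4. These ubiquitous forms had folds between 1.37 and 2.98, all with counting intervals above 1. Cox7b stood at 15.0, 11.2, 52.5, 32.9 and 33.3, and Cox8a, the liver form of subunit 8, at 40.04, 44.2, 87.0, 76.3 and 76.5. Cox7b had folds of 3.50 (2.72 to 4.56) and 2.94 (2.16 to 4.06), the largest positive-gate difference in complex IV.

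The testis form Cox6b2 and the heart and muscle form Cox7a1 were near the detection limit. Cox6b2 had 0, 1, 10, 1 and 2 reads and Cox7a1 had 3, 1, 2, 0 and 0 reads. A count of 0 still allows up to 0.616 normalised read counts for Cox6b2 in control negative. For Cox7a1 it allows up to 0.473 in the positive and 0.400 in the high bezafibrate library. Cox6b1 therefore made up between 98.47% (bezafibrate negative) and 100% (control negative) of Cox6b reads.

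Cox7a2l, known as a factor that joins complexes III and IV into supercomplexes, did not stand apart by treatment. It stood at 18.7, 12.7, 17.7, 15.4 and 21.3, with folds of 0.949 (0.721 to 1.25) and 1.21 (0.870 to 1.71). Its difference was -0.07 in the negative gate, where the sign turned under equal column totals (0.15), and 0.26 in the positive gate. Its near relative Cox7a2, the liver subunit of complex IV, stood at 8.42, 10.8, 22.3, 16.4 and 17.5, with folds of 2.64 (1.87 to 3.82) and 1.52 (1.08 to 2.18). Within the reads of the Cox7a genes, Cox7a2l held 67.4% (58.8 to 75.2) and 53.6% (43.9 to 63.2) in the control libraries. With bezafibrate its share was 44.0% (38.4 to 49.8), 48.5% (41.4 to 55.6) and 55.0% (49.1 to 60.8), so that the control positive interval overlapped all the others. Cox7a2l lies at chr17:83501918-83517330 on the minus strand.

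**Figure D3:**
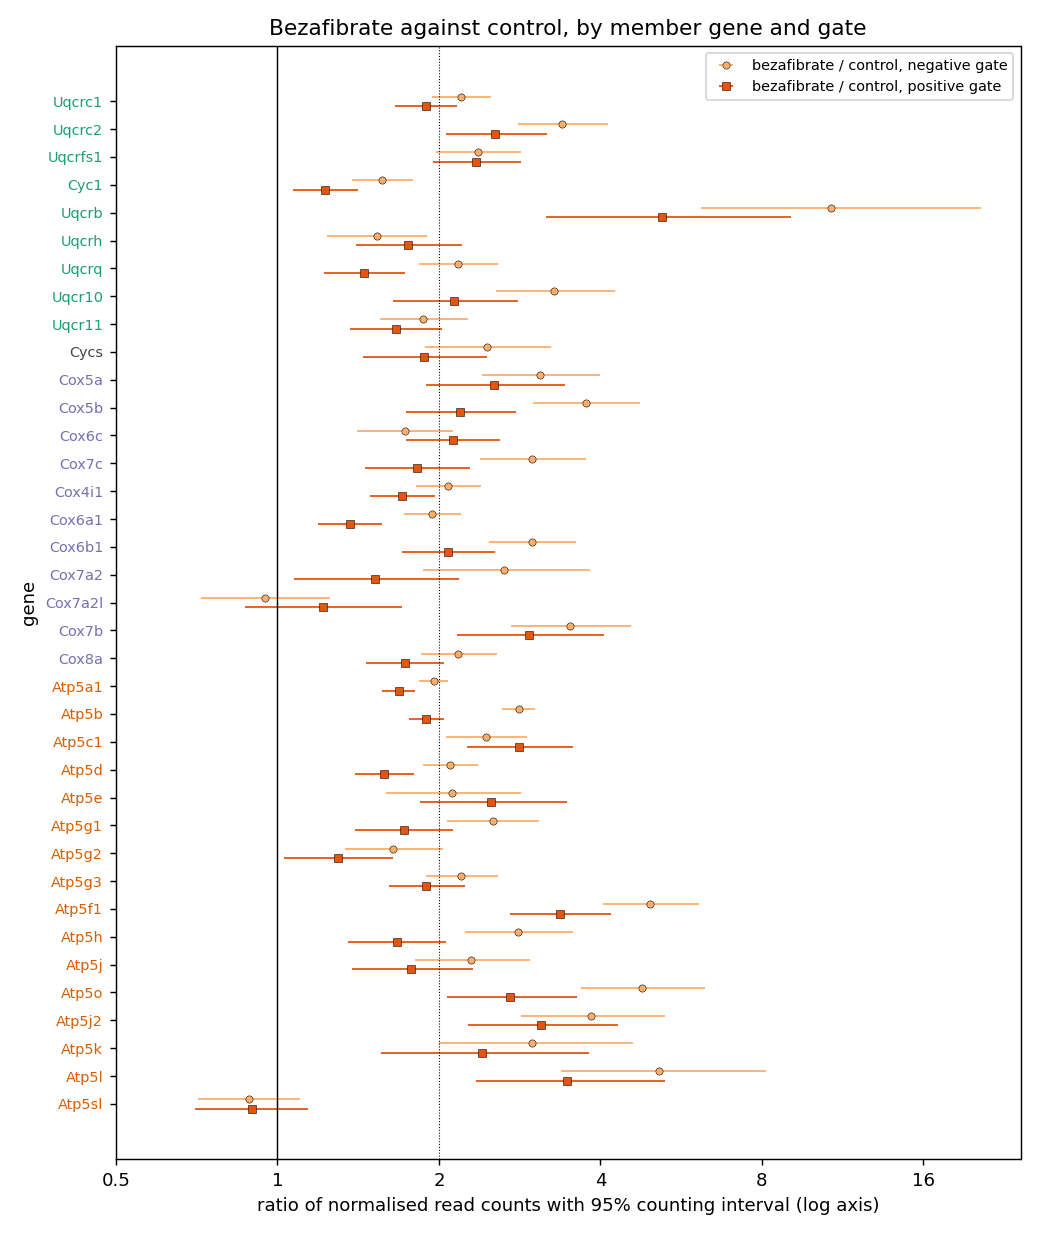
Ratio of bezafibrate to control normalised read count (log axis) for the 37 member genes in the negative gate (circles) and the positive gate (squares), with 95% counting intervals. The lower bound is above 1 for 35 genes in either gate, with Cox7a2l and Atp5sl as the exceptions, and Uqcrb lies farthest right.

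Levels of different genes were set beside each other per kilobase of transcript. On that scale the catalytic beta subunit gene Atp5b averaged 190 normalised read counts over the 5 libraries and the alpha subunit gene Atp5a1 154. Cox6a1, between them, led complex IV with 173, and Uqcrq led complex III with 146. The order depends on the transcript: with the longest principal transcript Uqcrq is at 38.9 and Atp5g1 at 9.57 in place of 75.7. At the low end stood Uqcrb with 25.5 in complex III, Cox7a2l with 15.97 in complex IV and Atp5sl with 10.9 among the analysed genes listed with ATP synthase. Cycs averaged 8.29.

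In the F1 head, Atp5b stood at 194.8, 209.3, 548.8, 396.1 and 467.5, and Atp5a1 at 268.1, 243.0, 524.0, 408.5 and 463.4. Among negative cells the fold was 2.82 (2.62 to 3.03) for Atp5b and 1.95 (1.84 to 2.08) for Atp5a1, and the counting intervals do not overlap. In the positive gate their folds were 1.89 and 1.68. Atp5c1, the gamma subunit of the rotor shaft, stood at 34.7, 21.6, 84.8, 60.8 and 65.0, and Atp5e, the epsilon subunit, at 13.3, 11.6, 28.3, 29.2 and 24.6. Both had larger folds in the positive gate (2.82 and 2.505) than in the negative gate (2.44 and 2.12). Atp5d, the delta subunit, ranged from 75.3 to 158. The medians of the 5 F1 genes were 1.06 and 0.92.

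The c-ring protein is encoded by 3 genes whose mature products are the same, which makes them the isoform set of ATP synthase. Atp5g1 stood at 26.9, 28.2, 67.7, 48.5 and 54.2. Atp5g2 stood at 26.3, 24.8, 43.2, 32.2 and 30.9. Atp5g3 stood at 44.1, 44.4, 97.2, 84.2 and 97.4. Atp5g2 had the smallest folds, of 1.64 (1.34 to 2.03) and 1.30 (1.03 to 1.64), against 2.52 and 1.72 for Atp5g1 and 2.20 and 1.90 for Atp5g3. Of c-ring reads Atp5g2 made up 27.0% (23.1 to 31.2) and 25.4% (21.5 to 29.7) in the control libraries, and 20.8% (18.8 to 22.9), 19.5% (17.1 to 22.0) and 16.9% (15.0 to 19.0) in the bezafibrate libraries. Atp5g3 held 45.4%, 45.6%, 46.7%, 51.1% and 53.4%, so these shares lay farthest apart in bezafibrate high. Atp5g2 carries the NRF1 letters and Atp5g3 the estrogen-related receptor letters printed above, a description that was not tested. Reads of near-identical copies and processed pseudogenes could be split between these genes by the counting, so the c-ring values are uncertain. Whether this also touches other members was not examined.

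The peripheral stalk, which holds the head still against the rotor, and the small membrane subunits near the dimer interface had the largest medians by role in either gate: 1.81 and 1.09 for the stalk, and 1.85 and 1.55 for the membrane subunits. Atp5f1, subunit b of the stalk, stood at 21.8, 22.6, 107.7, 76.0 and 78.2, with folds of 4.95 (4.04 to 6.12) and 3.36 (2.71 to 4.19). Atp5o, the stalk protein that caps the head, stood at 13.6, 14.4, 64.7, 39.2 and 39.8, with folds of 4.77 (3.68 to 6.27) and 2.72 (2.07 to 3.61). Both genes were among the 3 largest member differences in the negative gate. Atp5h, subunit d, stood at 19.1, 28.2, 53.6, 47.1 and 45.4, and Atp5j, coupling factor 6, at 17.5, 18.5, 40.1, 32.9 and 36.8. Exons of Atp5f1 overlap those of Wdr77 on the opposite strand, which stood between 15.2 and 23.1, and those of Atp5j overlap Gabpa, between 23.5 and 37.9.

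Of the membrane subunits, Atp5l (subunit g) stood at 5.13, 6.68, 26.4, 23.2 and 15.7, with folds of 5.14 (3.38 to 8.14) and 3.47 (2.34 to 5.29). Atp5k (subunit e) stood at 6.16, 6.04, 18.4, 14.5 and 8.26. Atp5j2 (subunit f) stood at 10.5, 10.8, 40.3, 33.4 and 30.4. Per kilobase these 3 genes had means of 26.2 to 28.8, the lowest of the ATP synthase subunits with the shortest principal transcript but not with the longest, where Atp5g1 lies below them. Bezafibrate high was nearest to the control libraries for Atp5k and Atp5l, and less so for Atp5j2.

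Atp5sl, named for its likeness to an ATP synthase gene and listed in the annotation as Dmac2, is known for assembly of complex I rather than as a subunit of ATP synthase. It stood at 29.98, 26.9, 26.5, 24.1 and 22.7, with folds of 0.885 (0.711 to 1.10) and 0.895 (0.702 to 1.14). Its differences of -0.17 and -0.15 turned to 0.06 and 0.04 under equal column totals. Its share of ATP synthase reads was 3.71% and 3.40% in the control libraries and 1.37%, 1.64% and 1.41% in the bezafibrate libraries. Atp5s, another gene outside the enzyme itself, had 5 to 16 reads per library.

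Between the gates of control hepatocytes, the complexes differed little. The median member difference of positive minus negative was 0.05, against 0.01 over all genes, with 25 of 37 members above 0 (52.1% of all genes). By complex the medians were 0.06, 0.09 and 0.03 for complex III, complex IV and ATP synthase. The counting interval included 1 for 33 of 37 members and excluded it for 4, near the background (9.34% of all genes). It lay above 1 for Atp5h, at 1.48-fold (1.13 to 1.95), and below 1 for Atp5c1, at 0.621-fold (0.480 to 0.800), Cox7a2l, at 0.681-fold (0.482 to 0.955), and Atp5a1, at 0.906-fold (0.836 to 0.982). For most members a difference between the control gates was thus not detectable at this depth.

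Between the gates of hepatocytes with bezafibrate, member RNA was lower in the positive than in the negative library. The median was -0.34, against -0.01 over all genes, and 4 of 37 members lay above 0 (48.4% of all genes). Complex III had -0.29, complex IV -0.42 and ATP synthase -0.34. The counting interval lay below 1 for 25 of 37 members (18.6% of all genes) and included 1 for 11. It lay above 1 for Cox6c alone (13.7% of all genes), at 1.31-fold (1.13 to 1.52). Atp5o was lowest, at 0.607-fold (0.519 to 0.709), followed by Cox7b at 0.627-fold (0.528 to 0.744). The Rn45s share (10.5% against 18.5%) and the hepatocyte marker sum (95374.3 against 67653.9, for the larger part Alb) moved with this difference. Their part in it was not tested.

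By the median member difference, the high gate lay near the positive gate. By their share of all reads, the members lay at 0.315% in bezafibrate high. That is between 0.282% in the positive and 0.356% in the negative bezafibrate library, and the counting intervals do not overlap. High minus positive had a median of 0.02, against 0.00 over all genes, with 23 of 37 members above 0 (49.9% of all genes), and without Rn45s in the totals that median was -0.010. High minus negative, which shares the bezafibrate negative library with the comparison before, had a median of -0.28, against -0.02 over all genes, with 7 of 37 members above 0 (47.0% of all genes). The counting interval of high against positive lay above 1 for 11 of 37 members, below 1 for 5 and included 1 for 21. The share over all genes was not counted for this comparison. The roles parted in high minus positive. The 4 core genes of complex III had a median of 0.22, the 3 c-ring genes 0.16 and the 7 isoform genes of complex IV 0.13. The 5 F1 genes had 0.12 and the 4 stalk genes 0.03. The 3 small membrane subunits of ATP synthase had -0.53, the 5 small subunits of complex III -0.21 and the 4 shared subunits of complex IV -0.14. Atp5k was 0.570-fold (0.406 to 0.795), Uqcrb 0.641-fold (0.487 to 0.841) and Atp5l 0.679-fold (0.528 to 0.871) in high against positive. At the other end stood Cox7a2l with 1.38-fold (1.07 to 1.79). This difference also went with level and length: over 36 members its Spearman correlation was 0.57 with the mean value and 0.47 with transcript length, against 0.03 and -0.02 over all genes. These are descriptions of genes that share 2 libraries, and role, level and length were not tested apart. Against bezafibrate negative, Uqcrb (0.451-fold, 0.351 to 0.576) and Atp5k (0.449-fold, 0.327 to 0.610) were the 2 members at least 2-fold lower in bezafibrate high (0.156% of all genes). Over the 5 libraries, 28 of 37 members were highest in bezafibrate negative (31.1% of all genes). In bezafibrate high, 6 were highest (11.5% of all genes): Uqcrc1, Uqcrfs1, Uqcrh, Cox4i1, Cox7a2l and Atp5g3. Cox6c and Atp5e were highest in bezafibrate positive (11.6% of all genes) and Atp5sl in control negative (23.2% of all genes).

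**Figure D4:**
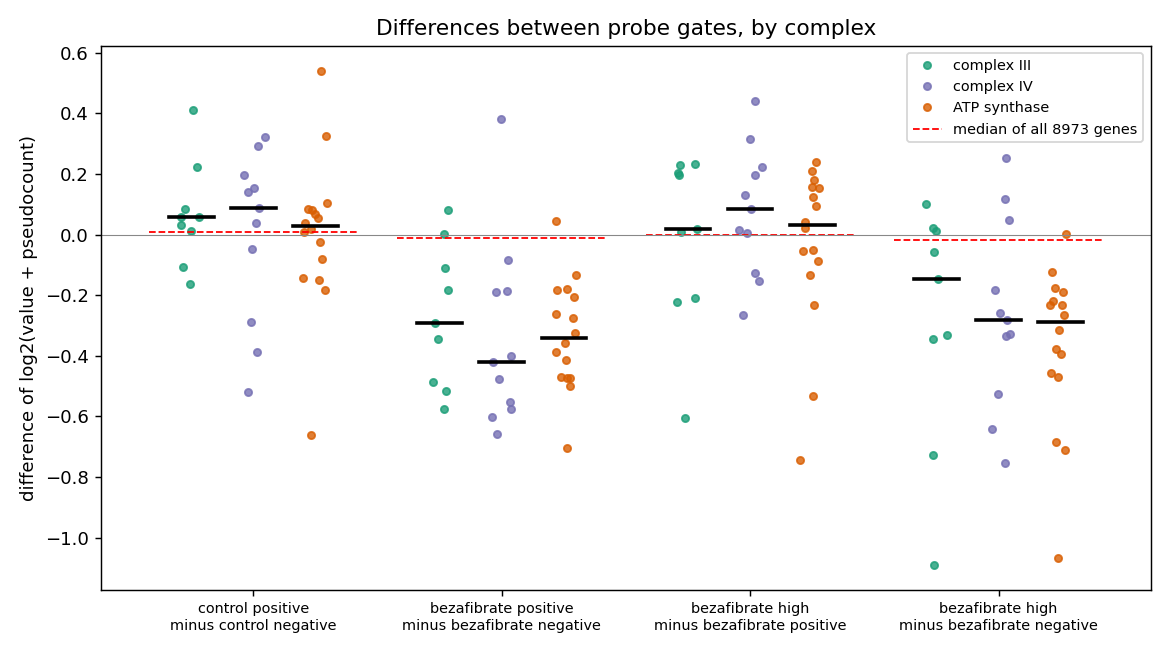
Differences of log2(value + pseudocount) between gates for each member of complex III (green), complex IV (purple) and ATP synthase (orange), with the median per complex as a black bar and the median of all 8973 genes as a dashed red line. Medians lie near 0 in control hepatocytes and between -0.42 and -0.29 for bezafibrate positive minus negative; Cycs is not drawn.

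Members are short genes, and in these libraries short genes leaned towards bezafibrate. Transcript lengths came from the annotation for 36 of the 37 analysed members, and all genes were put in 5 length classes of equal size, and 31 members fell in the shortest, 238 to 1662 bases. Within that class the median of all genes was 0.36 in the negative gate and 0.24 in the positive gate, and 20.5% and 9.32% of genes were at least 2-fold higher with bezafibrate. The 31 members there had medians of 1.22 and 0.91, with 24 and 14 at least 2-fold higher. In the longest class the medians of all genes were -0.14 and -0.10. Among the members themselves, length and difference showed Spearman correlations of 0.01 and 0.02 over 36 genes, given as a description since the genes share their libraries. How length entered the values was not tested.

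**Figure D5:**
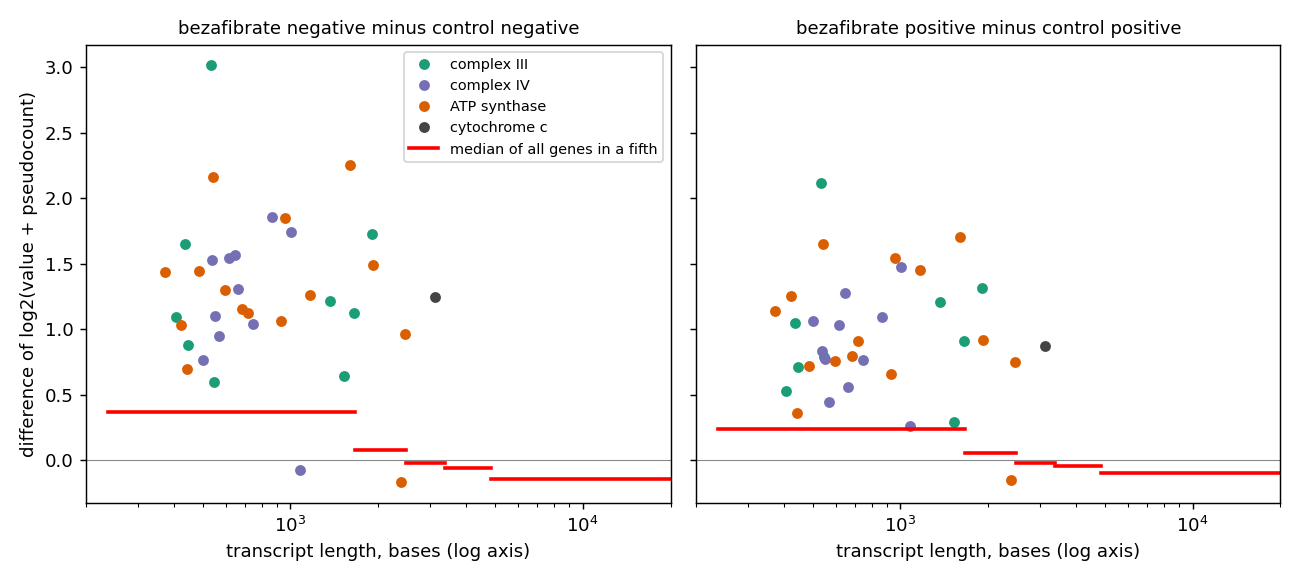
Transcript length in bases (log axis) against the bezafibrate minus control difference of log2(value + pseudocount) for 36 members, in the negative gate (left) and the positive gate (right); red lines are the medians of all genes in 5 length classes, the longest cut at the axis end. Members lie above the median of the shortest class, 0.36 and 0.24, except Cox7a2l and Atp5sl in the negative gate and Atp5sl in the positive gate.

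Other genes of the pathway were taken from lists and counted in the same way. Over all genes the medians were 0.02 and 0.00 in the 2 gates, and in the shortest length class 0.36 and 0.24. Complex I subunits, which pass electrons from NADH to ubiquinone, had medians of 1.09 and 0.82. At least 2-fold higher with bezafibrate were 22 and 9 of 37 (10.2% and 4.94% of all genes). The 4 complex II subunits, which also belong to the citric acid cycle, had 1.49 and 1.03, and 5 carriers and porins of the mitochondrial membranes 1.29 and 1.04. Ndufa4, named with complex I but since recognised as a complex IV subunit, led the first list with 11.7, 9.92, 75.6, 53.4 and 48.5; it was chosen after its values were seen. Assembly factors of complexes III and IV had smaller medians than the subunits they help to join. These were 0.26 and 0.00 for 4 factors of complex III and 0.38 and 0.26 for 18 of complex IV. The 5 genes listed with ATP synthase, not all of them assembly factors, had medians of 0.74 and 0.44. Among these, Atpaf1 (-0.23 and -0.46), Atpaf2 (0.25 and 0.45) and Tmem70 (0.92 and 0.44) are assembly factors. The others were Atpif1 (0.74 and 0.44) and 2010107E04Rik (2.40 and 1.25). Cytosolic ribosomal proteins had medians of 0.76 and 0.48, and mitochondrial ribosomal proteins 0.73 and 0.38.

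Regulators of these genes had medians of -0.34 and 0.17 over 11 genes. Nrf1, whose letters are printed above, stood at 17.5, 15.1, 9.86, 9.61 and 13.7. Esrra, the gene of estrogen-related receptor alpha, stood at 28.1, 21.3, 14.3, 17.2 and 21.9. Gabpa, Tfam and Tfb2m were higher with bezafibrate in both gates, with differences of 0.59 and 0.32, of 0.43 and 0.18, and of 0.85 and 0.51. Among the coactivators, Ppargc1b stood at 29.4, 20.3, 46.7, 54.4 and 56.0, Ppargc1a at 58.5, 57.6, 32.9, 33.6 and 27.7, and Pprc1 at 77.6, 76.5, 26.5, 27.6 and 26.4. The list thus went both ways. With bezafibrate, values of Nrf1, Esrra, Ppargc1a, Pprc1 and Polrmt were lower in both the negative and the positive gate. Values of Ppargc1b, Gabpa, Tfam and Tfb2m were higher in both. These are directions of single values without counting intervals, some of them small, and Esrra in bezafibrate high (21.9) was above control positive (21.3).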

How the data were processed

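The authors deposited 1 table of normalised read counts (signal per gene and library) for 13966 gene symbols. Build mm10 and the tools RSEM, Bowtie2, edgeR and Trimmomatic (0.36) are named in the submitters' processing notes. The tools' roles, the annotation, the use of strand in counting and the normalization factor were not given in those notes or other sources. Per the labels' protocols, libraries were strand-specific and depleted of ribosomal RNA. Divided by what 1 read is worth in its column, 100% of the values came out whole to within 0.001 reads. Counting intervals are exact Clopper-Pearson intervals on these reads, and a count of 0 was given a limit of 3 reads.

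The filter was a mean of 5 times the pseudocount of 1.0035 normalised read counts. Members and lists were chosen with earlier results of these data known. Members named with the value in every library were, by rule, those with the highest and lowest mean in each role, the 3 at each end of either treatment difference, the 1 at each end of the 4 gate comparisons, all isoform genes, and Uqcrc1, Cyc1, Cycs, Cox4i1 and Atp5b. That makes 33; other members are given by range or fold. Transcript lengths are the shortest principal transcript in GENCODE for GRCm38, to which 13804 rows matched; Atp5o did not match 1 entry and has none. Exons of 11 members overlap another gene's, 10 of them on the opposite strand, so such values are uncertain.

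Since each group has 1 library, the comparisons of single libraries are descriptions without a test. As alternatives the pseudocount, the filter, the scaling between libraries and the centring by length were changed. Added after the data were seen, edgeR 4.0.16 and limma 3.58.1 in R 4.3.3 were fitted to 4 libraries. Gate and treatment were the terms, with the gates as blocks, 1 residual degree of freedom and Benjamini-Hochberg adjustment. The step was tested on simulated data, in which some genes were raised with bezafibrate and none lowered. Those data held no gate effect and no mouse effect shared by libraries, so they cannot show how the fit handles these. The rest was done in Python 3.11.15 with scipy 1.17.1, numpy 2.4.6, pandas 2.3.3 and matplotlib 3.10.9.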

Additional observations from a re-analysis of the deposited data

Results flagged for a closer look

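The median gate difference of the members was near 0 in control hepatocytes and below 0 in hepatocytes with bezafibrate. In control the counting interval included 1 for 33 of 37 members, and it excluded 1 for 9.34% of all genes. Over the 37 members, positive minus negative had a median of 0.05 in control and of -0.34 with bezafibrate, and the median of the differences between these per gene was -0.35. By complex, that median was -0.35 for complex III, where the gate medians were 0.06 and -0.29. It was -0.33 for complex IV, with 0.09 and -0.42, and -0.35 for ATP synthase, with 0.03 and -0.34. The same median of per-gene differences was -0.03 over all genes. It was -0.47 for complex I subunits, -0.49 for complex II subunits and -0.26 for cytosolic ribosomal proteins, so the shift was not particular to the members. With 1 library per group, the change of the gate difference was not tested.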

How the results depend on the processing

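Under 9 alternatives per comparison, the member medians of bezafibrate minus control kept their sign in both gates. With equal column totals, the complex III median was 1.35 in the negative gate, and in the positive gate complex III had 1.11 and ATP synthase 1.116. With totals taken without Rn45s, complex III had 0.87 and ATP synthase 1.03 in the negative gate, and in the positive gate ATP synthase had 0.80. In the negative gate 18 members were then at least 2-fold higher, against 28, and 549 of 8973 genes, against 919. Centred on the median of genes of like length, complex III had 0.76 and 0.67 and ATP synthase 0.90 and 0.69 in the negative and positive gates. With this centring 15 and 9 members were at least 2-fold higher, against 28 and 16. Of all genes, 750 and 378 of 8904 were, against 919 and 443 of 8973. For high minus positive, totals without Rn45s turned the median to -0.010 over all members, to -0.012 for complex III and to -0.000306 for ATP synthase. The gate difference with bezafibrate stayed below 0, between -0.35 and -0.20. Of all genes, the added fits called 2162 higher and 1944 lower by edgeR, 3229 and 1056 by edgeR with library totals, and 2196 and 1868 by limma; members called higher were 35 in each. No paired analysis was possible because each group has 1 library and the groups thus share fewer than 2 replicate numbers; the added fits block by gate instead. Depth limits Cox6b2, Cox7a1 and Atp5s, with 16 reads or fewer per library, and the control values of Uqcrb, with 13 and 18 reads.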
